A study of Mus musculus with 12 samples.

Results

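Replication-dependent histone genes encode the core histones H2A, H2B, H3 and H4 and the linker histone H1 that package newly copied DNA. The genes were taken by name, although earlier results of these data were known. Each Entrez identifier of the count table was given its mouse symbol. Symbols beginning with Hist1h to Hist4h in the older naming, or with H1f, H2ac, H2bc, H3c or H4c and a digit in the newer, were taken. Of 66 genes that matched, pseudogenes aside, 4 were left out as the rule asks (H1f0, H1f7, H1f8 and H1f10), which left 62 of the 24100 genes in the table. They comprised 6 H1, 16 H2A, 17 H2B, 10 H3 and 13 H4 genes. RefSeq symbols named 58 of them, and the other 4 (H2aw, H2bu2, H4f16 and H4bc24) were found by their older symbols, which for H4bc24 is Hist1h2br, so it was counted as an H2B gene. RefSeq listed 5 further genes of these names that the count table did not hold.

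The libraries were made from total RNA of mouse embryonic fibroblasts (MEFs) that, by the paper, were all immortalized with SV40, to compare transcription in RTF2-deficient and wild-type (WT) cells, RTF2 being a protein of the DNA replication machinery. WT MEFs were Rtf2+/+ and RTF2-deficient MEFs were Rtf2-/lox, with a null and a floxed allele, and both genotypes had received Cre, the recombinase that excises the floxed part, from a retrovirus 72 h before harvest. There were 2 lines, each a set of littermate MEFs from a different mother, and 3 technical replicates per line and genotype gave 12 libraries in 4 groups. WT and RTF2-deficient MEFs of a line came from different embryos, so embryo and genotype cannot be told apart within a line, and p-values here measure the spread between libraries and not between embryos.

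Library depth was similar in the 4 groups. Total counts were 41461713, 41403910 and 42143397 in WT line 1 and 43042046, 42333073 and 41989154 in RTF2-deficient line 1. They were 43769936, 44695002 and 40985986 in WT line 2 and 41877556, 39360167 and 42618208 in RTF2-deficient line 2. Levels are CPM, counts scaled to the size of the library, after TMM normalization, which corrects for its composition. A count of 0 allows up to 3 counts, which covers counting error only. Before that normalization 3 counts are 0.0671 to 0.0762 CPM across the libraries, and after it 0.0651 to 0.0770 CPM.

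Rtf2 itself stood at 44.9, 44.8 and 47.2 CPM in WT line 1 and at 5.64, 5.44 and 6.29 CPM in RTF2-deficient line 1. It stood at 57.8, 52.9 and 50.9 CPM in WT line 2 and at 6.66, 6.49 and 6.33 CPM in RTF2-deficient line 2. Neither line showed any overlap of genotypes, with a log2 fold change of −3.01 (SE 0.06, edgeR adjusted p = 2.45e-11). Fibroblast genes were abundant in every library, with Col1a1, a chain of type I collagen, between 4849 and 9494 CPM and Fn1, fibronectin, between 5618 and 11121 CPM. Lum, a matrix proteoglycan on the same list, reached at most 1.65 CPM. Of the 12 fibroblast markers, 0 rose and 2 fell over both lines in edgeR, or 16.7% beside 8.18% of all genes called lower. DESeq2 and voom each called 4, and DESeq2 called 2702 of all 14263 genes. The 2 that fell in edgeR were Prrx1 (log2 fold change −0.47) and Twist1 (−0.27), both transcription factors of mesenchyme.

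WT line 2 stood apart from the other groups in sex-linked genes, and some libraries of line 2 were high in interferon-stimulated genes. Xist, the RNA of the inactive X chromosome, lay between 0.0217 and 0.132 CPM in WT line 2 and between 103 and 173 CPM in the other groups. Ddx3y, a gene of the Y chromosome, lay between 91.8 and 107 CPM in WT line 2 and at or below 0.195 CPM elsewhere, and over both lines 3 of the 5 sex-linked markers were called lower in RTF2-deficient MEFs and 0 higher. In line 2, sex and genotype therefore cannot be told apart. The 22 interferon-stimulated genes summed to 627, 166 and 199.9 CPM in WT line 1, 278, 157 and 157 CPM in RTF2-deficient line 1, 9051, 904 and 2573 CPM in WT line 2 and 234, 423 and 3427 CPM in RTF2-deficient line 2. WT line 2 replicate 1 was the highest, RTF2-deficient line 2 replicate 3 came next, and the groups of line 2 overlapped.

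In most genes a messenger RNA ends in a poly(A) tail, whereas the mRNA of a replication-dependent histone gene ends just after a stem-loop that the stem-loop binding protein SLBP holds. The genes lie in clusters, mostly lack introns, and are transcribed in S phase, when NPAT at the histone locus body is activated by cyclin E and CDK2. Some of them also give longer, polyadenylated transcripts, for instance in cells that stop dividing. The methods call the extracted RNA total messenger RNA and name removal of ribosomal RNA only for other libraries, while the sample records say total RNA. None of the sources used here states if poly(A) RNA was selected or if reads were counted by strand, so reads of overlapping transcripts from either strand cannot be told apart.

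The histone genes were measured at low levels, and a few of them held most of the counts. Together the 62 genes summed to 52.7, 79.4 and 73.0 CPM in WT line 1, 50.2, 73.0 and 59.3 CPM in RTF2-deficient line 1, 62.1, 55.8 and 60.9 CPM in WT line 2 and 59.4, 54.2 and 59.6 CPM in RTF2-deficient line 2. The genotypes overlapped in both lines, and WT line 1 ranged most widely. Group means were 68.4 ± 13.9 and 60.9 ± 11.5 CPM for WT and RTF2-deficient line 1, and 59.6 ± 3.33 and 57.7 ± 3.05 CPM for line 2 (SD, n = 3). In raw terms a library held between 2104 and 3204 counts for all 62 genes. H2bc4, an H2B gene, and H1f2, a linker histone gene, took 50.6% to 70.4% of these counts, and the 9 genes with the highest CPM took 79.6% to 90.7%. Without H2bc4 and H1f2 the sum was 20.9 ± 3.53 and 24.5 ± 4.11 CPM in WT and RTF2-deficient line 1, and 23.3 ± 1.93 and 26.2 ± 1.92 CPM in line 2. In each line this difference had the opposite direction to that of the full sum.

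Most histone genes were close to the limit of counting. The median count over the libraries was under 10 for 41 of the 62 genes and under 50 for 54, and 31 genes had a count of 0 in at least 1 library, although no gene was at 0 in all 12. After edgeR's filter on low counts, 33 of the 62 were tested among 14263 genes, and the highest count of the 29 genes not tested was 40, for H1f1 in WT line 2 replicate 1. That library was the highest of the 12 for 12 of the 62 genes, and WT line 1 replicate 1 was the highest for 0. RTF2-deficient line 1 replicate 2 and RTF2-deficient line 2 replicate 1, both low in interferon-stimulated genes, were each the highest for 10. RTF2-deficient line 2 replicate 3 and WT line 2 replicate 3, both high in them, were the highest for 3 and 4. The part of the interferon difference in this was not tested.

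Levels were also scaled per kilobase of annotated GENCODE M21 transcript, which corrects for length only. On this scale H2bc4 was the highest of the 62 at 21.5 CPM. H1f2 followed at 8.39, the H4 gene H4c9 at 4.33 and the H2A gene H2ac19 at 2.33 CPM. H3c14 led the H3 genes at 1.29 CPM per kilobase, and H2ac13, H2bc21 and H2aw followed at 1.28, 1.24 and 1.16. All 75-base stretches of H2ac19 and H3c14, and 89.3% of those of H2ac13, occur in other genes' transcripts, so their ranks are uncertain. RefSeq gives shorter spans for H1f2, H4c9, H2aw and H3c14. For H2aw they are chr11:58954685-58955192 in RefSeq and 58954685-58956830 in GENCODE M21. Levels and ranks per kilobase depend on this, and they were not computed with RefSeq lengths. Replication-independent histone genes, which make histones throughout the cell cycle, were far higher on the same scale: H2az1 stood at 329.5 CPM per kilobase, H3f3b at 244, H3f3a at 140.2 and H1f0 at 123. H2ax, whose histone marks broken DNA when phosphorylated, stood at 49.0 CPM per kilobase, above each of the 62 genes. Whether poly(A) RNA was selected is not stated, and the part of RNA selection in these differences was not tested.

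**Figure D1:**
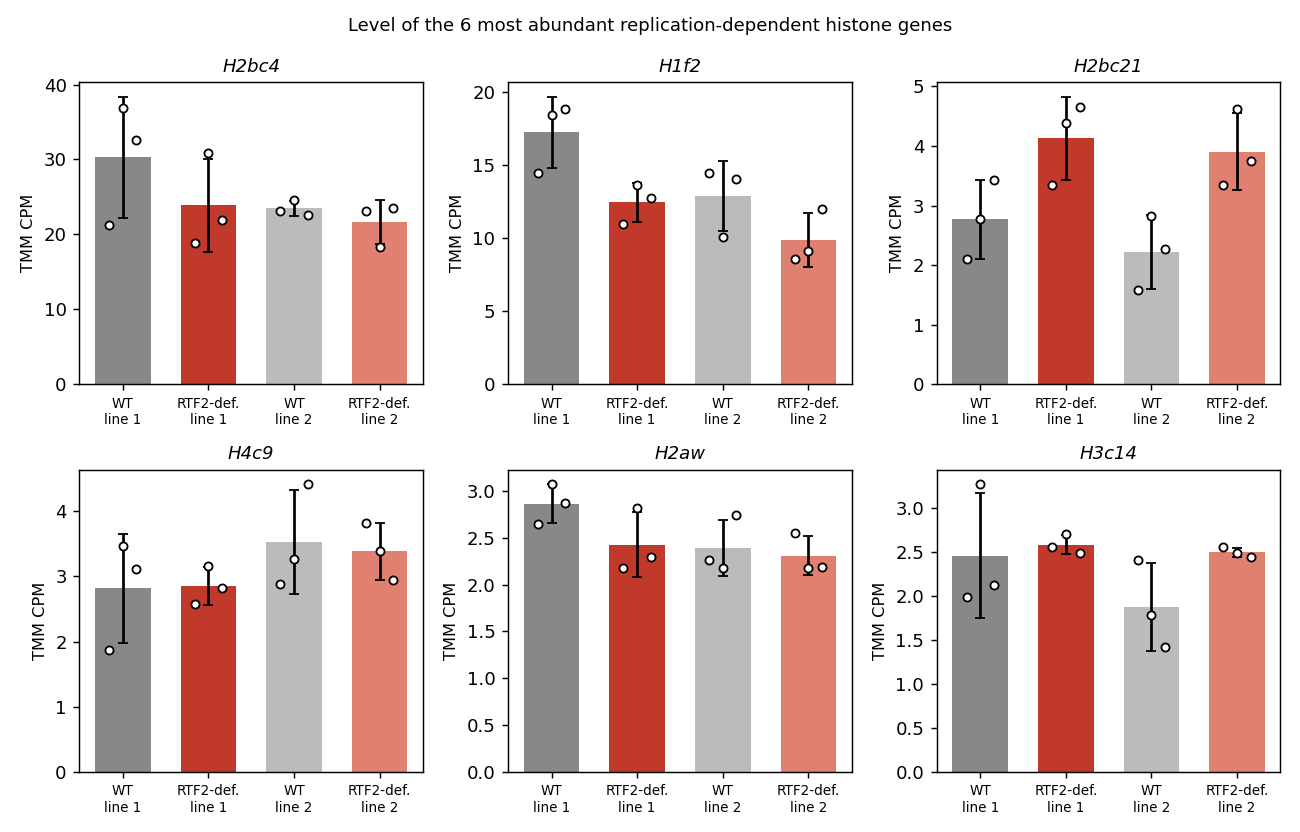
TMM-normalized CPM of the 6 replication-dependent histone genes with the highest CPM, with bars for group means, lines for ±1 SD and points for the 3 libraries of each group. H2bc21 lay between 3.34 and 4.66 CPM in RTF2-deficient MEFs and between 1.59 and 3.43 CPM in WT MEFs, and H1f2 between 8.54 and 13.6 CPM against 10.1 and 18.8 CPM.

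Over both lines, RTF2-deficient MEFs differed from WT MEFs in 2 of the 33 histone genes tested: H2bc21, which makes an H2B, rose, and H1f2, which makes a linker histone, fell. The called share was 6.06% of the histone genes against 13.2% of all 14263 genes tested. For genes called higher the background was 4.98% and for genes called lower 8.18%. An unadjusted p under 0.05 was reached by 4 of the 33, or 12.1%, against 28.5% of all genes. The libraries of the genotypes did not overlap in line 1 in 3 of the 33, beside 3005 of all 14263 genes. In line 2 this was so in 4 of the 33, beside 4207, and in both lines in 0, beside 852. No histone gene was called with a log2 fold change beyond 1 in edgeR, while 246 of all genes were. In these bulk libraries, fewer cells in S phase and less RNA per cell cannot be told apart.

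H2bc21 lies on chromosome 3 (GRCm38 chr3:96221072-96223738, plus strand). It stood at 2.10, 2.77 and 3.43 CPM in WT line 1, 3.34, 4.39 and 4.66 CPM in RTF2-deficient line 1, 1.59, 2.82 and 2.27 CPM in WT line 2 and 3.34, 4.62 and 3.75 CPM in RTF2-deficient line 2. In line 2 every RTF2-deficient library was above every WT library, and in line 1 the lowest RTF2-deficient library lay below the highest WT library. In raw counts these values were 73 to 142 in WT libraries and 139 to 191 in RTF2-deficient libraries. The log2 fold change over both lines was 0.69 (SE 0.17, edgeR adjusted p = 0.0220), from 0.58 in line 1 (adjusted p = 0.323) and 0.81 in line 2 (adjusted p = 0.0580). The call ended without RTF2-deficient line 1 replicate 3 (adjusted p = 0.0520) and without RTF2-deficient line 2 replicate 2 (adjusted p = 0.0597), and, with the genes tested held the same, also without WT line 2 replicate 3 (adjusted p = 0.0514). None of the 75-base stretches of its annotated transcript occurred in another gene's transcript.

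H1f2 lies in the large cluster on chromosome 13 (chr13:23738807-23739531, plus strand). It stood at 14.4, 18.4 and 18.8 CPM in WT line 1, 10.98, 13.6 and 12.7 CPM in RTF2-deficient line 1, 14.4, 10.1 and 14.0 CPM in WT line 2 and 8.54, 9.08 and 11.98 CPM in RTF2-deficient line 2. The groups of line 1 did not overlap, whereas in line 2 WT replicate 2 lay below the highest RTF2-deficient library. Its log2 fold change was −0.42 (SE 0.12, edgeR adjusted p = 0.0370), from −0.47 in line 1 (adjusted p = 0.231) and −0.38 in line 2 (adjusted p = 0.186). The call depended on single libraries: it ended in 9 of 12 fits with 1 library left out, namely without WT line 1 replicate 2 or 3, RTF2-deficient line 1 replicate 1, 2 or 3, WT line 2 replicate 1 or 3, or RTF2-deficient line 2 replicate 1 or 2, with adjusted p from 0.0553 to 0.0897. A fit without the term for line also ended it (adjusted p = 0.123).

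H2bc4, the most abundant of the 62 genes, was not called over both lines. It stood at 21.3, 36.9 and 32.6 CPM in WT line 1, 18.9, 30.8 and 22.0 CPM in RTF2-deficient line 1, 23.1, 24.7 and 22.6 CPM in WT line 2 and 23.2, 18.3 and 23.6 CPM in RTF2-deficient line 2. The genotypes overlapped in both lines, and the values varied more within the groups of line 1 than between them, although under each of the 3 replicate numbers of line 1 the RTF2-deficient library was the lower. Its log2 fold change was −0.23 (SE 0.15, edgeR adjusted p = 0.334), and in line 1 it was called only in a fit of that line alone with replicate numbers, added after seeing the data.

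The leading genes of the other families also missed the threshold. H4c9 stood at 1.86, 3.47 and 3.11 CPM in WT line 1, 2.58, 3.16 and 2.83 CPM in RTF2-deficient line 1, 2.89, 3.26 and 4.42 CPM in WT line 2 and 3.83, 3.39 and 2.94 CPM in RTF2-deficient line 2, with overlap in both lines. H3c14 stood at 1.98, 3.27 and 2.12 CPM and at 2.56, 2.70 and 2.49 CPM in WT and RTF2-deficient line 1, and at 2.41, 1.79 and 1.42 CPM and at 2.55, 2.49 and 2.44 CPM in line 2, where the groups did not overlap. H2ac19 stood at 1.67, 1.24 and 1.21 CPM and at 0.979, 1.72 and 1.54 CPM in WT and RTF2-deficient line 1, and at 0.955, 0.970 and 0.803 CPM and at 1.30, 1.15 and 1.22 CPM in line 2, again without overlap in line 2. Of all 14263 genes tested, 4207 were without overlap in line 2, as were 4 of the 33 histone genes. The log2 fold changes over both lines were −0.02 for H4c9, 0.24 for H3c14 and 0.23 for H2ac19, with edgeR adjusted p of 0.957, 0.363 and 0.404. H4c9 was slightly above 0 in some other settings, so its direction is not known.

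A further pair of genes came close to the threshold and is given because other tools called it, which was seen after the fits. H1f5, another linker histone gene, had counts of 7, 8 and 14 in WT line 1, 3, 7 and 4 in RTF2-deficient line 1, 21, 10 and 19 in WT line 2 and 7, 4 and 11 in RTF2-deficient line 2. H3c3, an H3 gene, had counts of 9, 17 and 18, then 20, 30 and 19 in line 1, and 11, 28 and 16, then 49, 37 and 26 in line 2, WT before RTF2-deficient. The genotypes of H1f5 overlapped in both lines, as did those of H3c3 in line 2. In edgeR the log2 fold change of H1f5 was −1.06 (SE 0.32, adjusted p = 0.0504) and that of H3c3 was 0.90 (SE 0.29, adjusted p = 0.0646). DESeq2 called 3 of the 33 genes, adding H3c3 (adjusted p = 0.0366), beside 2702 of all 14263 genes. It gave no adjusted p for 8 of the 33. Voom with a random block for group (correlation −0.148) called 4, adding H1f5 (adjusted p = 0.0131) and H3c3 (adjusted p = 0.0150). Its count over all genes is not given here, so these calls have no background share beside them. Without WT line 2 replicate 2 the edgeR adjusted p of H1f5 was 0.0361, without RTF2-deficient line 1 replicate 2 it was 0.0492 and without RTF2-deficient line 2 replicate 3 it was 0.0435. With a replicate block it was 0.0472.

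Over the 33 histone genes tested, the log2 fold change was above 0 in 22, beside 50.4% of all genes tested, and ran from −1.06 to 0.90. Its median was 0.24, beside 0.00 over all genes tested. The median log2 CPM of the same genes had an SD of 0.27 between single libraries within groups, which is not the error of that fold change. Over the same 33 genes, fits without 1 library gave a median fold change from 0.11 to 0.35, and in the 8 genes that reached 1 CPM in 6 libraries it was 0.04. The median SE of the 33 was 0.350, beside 0.102 over all genes. Of the 25 with a median count under 50, edgeR called 0, although H1f5 and H3c3 reached an unadjusted p under 0.05 and were called by voom, and H3c3 by DESeq2. Among all genes under this limit 160 of 2304 were called (6.94%). Of the 8 at or above the limit it called 2, beside 14.4% of all genes there. By family, the median log2 fold change was 0.42 for the 5 H3 genes, 0.31 for the 10 H2A, 0.07 for the 10 H2B, −0.06 for the 4 H1 and −0.09 for the 4 H4 genes tested. The H1 and H4 medians differed in sign between lines, at 0.26 and 0.15 in line 1 and −0.36 and −0.24 in line 2.

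**Figure D2:**
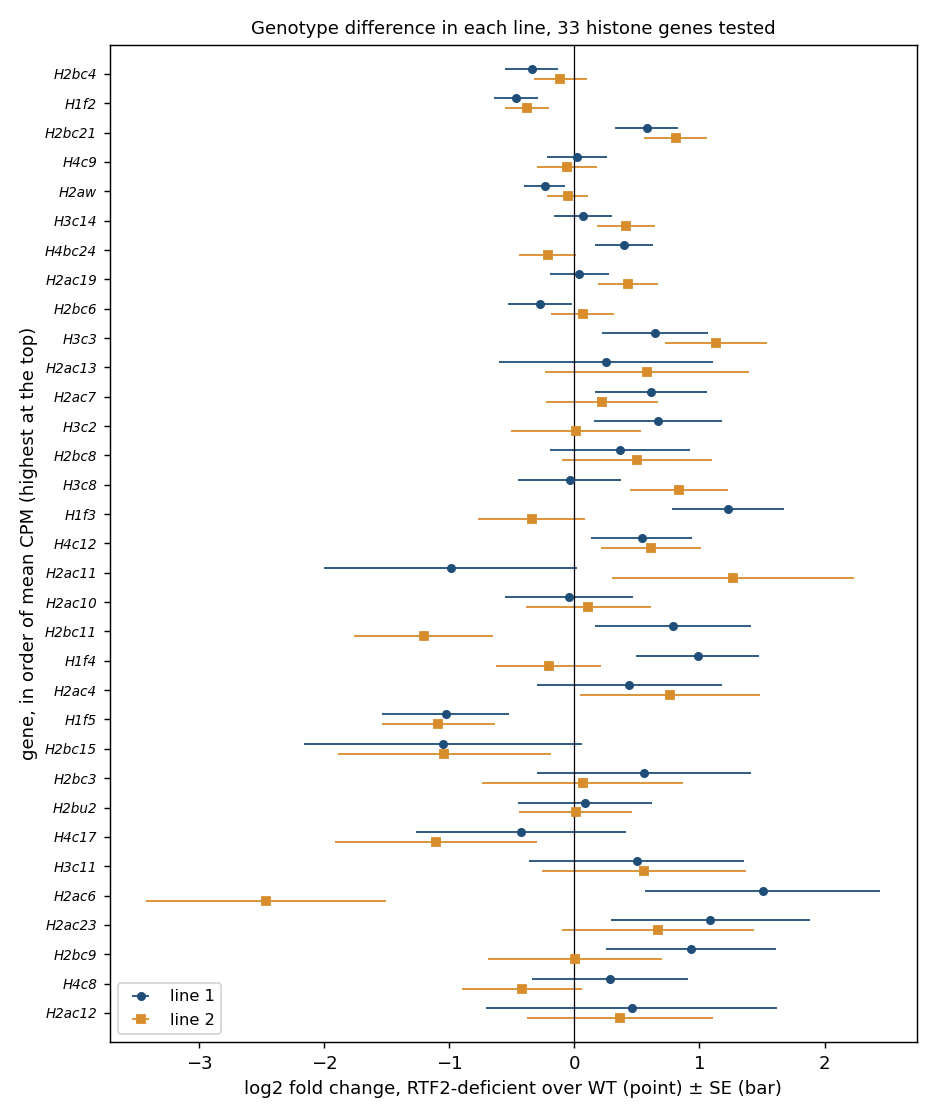
Log2 fold change (RTF2-deficient over WT) with ±1 SE of the 33 histone genes tested, in line 1 (circles) and line 2 (squares), ordered by mean CPM. Bars were longer for the less abundant genes, and in line 2 the points ran from −2.46 (H2ac6) to 1.27 (H2ac11).

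Within line 1, edgeR called 0 of the 33 histone genes, against 3.2% of all genes. At an unadjusted p under 0.05 there were 3 (H2bc21, H1f2 and H1f3), against 13.9% of all genes, and DESeq2 called 0, against 852 of all 14263 genes. The smallest adjusted p was 0.218, for the linker histone gene H1f3 (log2 fold change 1.22), and the median log2 fold change was 0.36 beside 0.01 over all genes. Its direction is not fixed: over the same 33 genes it was −0.11 without RTF2-deficient line 1 replicate 2, and in the 8 genes that reached 1 CPM in 6 libraries it was 0.03. With the libraries of line 1 fitted alone, so that WT line 2 had no part in the spread, edgeR again called 0 of 21, with 3 at an unadjusted p under 0.05, and 367 of all 13685 genes. Without RTF2-deficient line 1 replicate 3 the count was 1, H2ac11, an H2A gene whose counts were 10, 20 and 18 in WT and 0, 0 and 24 in RTF2-deficient line 1. The replicate left out is the library with 24 counts.

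Replicate numbers paired the libraries of line 1 but not those of line 2: all 6 libraries of line 1 correlated best with the library of the same number in the other genotype, and 0 of the 6 of line 2 did. What a number shares is not stated. With the planned replicate block on all 12 libraries, edgeR called 0 of 33 histone genes in line 1, with 5 at an unadjusted p under 0.05, and 242 of all 14263 genes. A fit of line 1 alone with a term for the number, added after seeing the data, called 4 of 21 histone genes in edgeR, against 29.1% of all genes. H1f2 (log2 fold change −0.47, adjusted p = 9.16e-04) and H2bc4 (−0.34, adjusted p = 0.00867) fell, and H2bc21 (0.58, adjusted p = 0.00997) and H1f3 (1.24, adjusted p = 0.0386) rose. That fit had 2 residual degrees of freedom per gene, and within line 1 no other fit with all its libraries made these calls. By number, the sum of the 62 genes was lower in RTF2-deficient than in WT MEFs in 3 of 3 cases in line 1 and, where numbers do not pair, in 3 of 3 in line 2. Without H2bc4 and H1f2 it was higher in 3 of 3 in line 1 and in 2 of 3 in line 2.

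Within line 2, edgeR again called 0 of 33, against 12.5% of all genes. At an unadjusted p under 0.05 there were 4 (H2bc21, H3c3, H1f5 and H2ac6), against 27.8% of all genes. DESeq2 called 1, H2bc21, against 2586 of all 14263 genes. The median log2 fold change was 0.07 beside 0.00 over all genes, and its direction is not known, since over the same 33 genes it ran from −0.05 to 0.21 without 1 library, and it was −0.05 in the 8 genes that reached 1 CPM in 6 libraries. Without WT line 1 replicate 1 the count was 1 (H2bc21), without WT line 2 replicate 2 it was 2 (H2bc21 and H1f1) and without RTF2-deficient line 2 replicate 3 it was 1 (H3c3). H1f1, which was not tested with all libraries, had counts of 40, 3 and 16 in WT line 2 and 2, 4 and 7 in RTF2-deficient line 2, so a WT library low in it was the library left out.

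The genotype effect of the 2 lines was compared by an interaction term, line 2 minus line 1. There edgeR called 0 of 33 histone genes, against 1.29% of all genes. At an unadjusted p under 0.05 there were 3 (H2ac6, H1f3 and H2bc11), against 8.49% of all genes, and DESeq2 called 0, against 409 of all 14263 genes. H2ac6, an H2A gene, had the smallest adjusted p at 0.302, with counts of 0, 3 and 7 in WT and 6, 14 and 9 in RTF2-deficient line 1, and 12, 5 and 26 in WT and 3, 4 and 0 in RTF2-deficient line 2. Without RTF2-deficient line 1 replicate 3 the count was 1, again H2ac11. For H2bc21 and H1f2 the differences between lines were 0.23 (adjusted p = 0.984) and 0.09 (adjusted p = 0.993).

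The WT lines were compared with each other as a yardstick, and these share their libraries with the comparisons within lines. WT line 2 differed from WT line 1 in 0 of 33 histone genes in edgeR, against 14% of all genes. At an unadjusted p under 0.05 there were 6, against 28.1% of all genes, and DESeq2 called 0, against 2748 of all 14263 genes. The largest departure by p was the linker histone gene H1f4 at a log2 fold change of 1.50 (adjusted p = 0.0576), and the median of the 33 was 0.19 beside 0.02 over all genes. Over the same 33 genes it ran from −0.02 to 0.49 without 1 library, and it was −0.34 in the 8 genes that reached 1 CPM in 6 libraries. Without WT line 2 replicate 2, the library with the fewest interferon-stimulated counts in its group, 3 were called: H1f4, H1f1 and the H2B gene H2bc11, whose counts were 4, 4 and 11 in WT line 1 and 40, 8 and 24 in WT line 2. In the same comparison edgeR called 9 of 22 interferon-stimulated genes, all higher, with 22 at an unadjusted p under 0.05 and a median of 4.55, and DESeq2 called 22. The part of this difference in the histone genes was not tested.

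Of 83 genes tested on 5 lists of genes that act on histone genes or their mRNA, or make other histones, 13 were called over both lines, or 15.7%, beside 13.2% of all genes. Of 13 tested that drive their transcription, 1 rose and 1 fell, and the median log2 fold change was 0.02. Pou2f1, which binds the octamer of H2B promoters, stood at 16.7, 22.0 and 18.7 CPM in WT line 1, 23.0, 24.8 and 25.1 CPM in RTF2-deficient line 1, 19.8, 14.3 and 18.8 CPM in WT line 2 and 29.7, 33.4 and 20.8 CPM in RTF2-deficient line 2. Both lines were without overlap, and the log2 fold change was 0.50 (edgeR adjusted p = 0.0236), a call lost without RTF2-deficient line 2 replicate 1 (adjusted p = 0.0568) or replicate 2 (adjusted p = 0.0530), with the same genes tested also without WT line 2 replicate 3 (adjusted p = 0.0515), and with a replicate block (adjusted p = 0.0569). E2f1, which turns on genes at the entry to S phase, stood at 52.1, 57.6 and 51.5 CPM, then 44.0, 42.9 and 43.0 CPM in line 1, and 50.8, 56.5 and 50.7 CPM, then 45.6, 39.3 and 44.5 CPM in line 2, WT before RTF2-deficient. It fell without overlap in either line, by −0.30 (adjusted p = 0.00314). Of all 14263 genes tested, 852 were without overlap in both lines. Npat (log2 fold change 0.02), Casp8ap2 (0.04), a partner of NPAT in the histone locus body also known as FLASH, and Hinfp (0.17), which binds H4 promoters, were not called.

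Genes that cut the histone pre-mRNA came next: of 21 tested, 1 rose and 3 fell, with a median of 0.03. Slbp, which makes the stem-loop binding protein, stood at 109, 92.5 and 107 CPM in WT line 1, 94.0, 89.4 and 95.1 CPM in RTF2-deficient line 1, 112, 112 and 113 CPM in WT line 2 and 96.6, 93.9 and 106 CPM in RTF2-deficient line 2. The genotypes overlapped in line 1 and not in line 2, and the log2 fold change over both lines was −0.17 (edgeR adjusted p = 0.0492). Sympk, the scaffold of the cleavage complex, had a log2 fold change of −0.16 (adjusted p = 0.0471). Both calls were fragile: that of Slbp was lost in 10 of 12 fits with 1 library left out, all but those without WT line 1 replicate 2 or RTF2-deficient line 2 replicate 3, and that of Sympk in 11, all but that without WT line 1 replicate 1, with adjusted p up to 0.133 and 0.122. A replicate block ended both calls (adjusted p = 0.0581 and 0.0876). Cpsf1 (−0.28, adjusted p = 0.00858) and Wdr33 (0.20, adjusted p = 0.0197), which serve mainly the recognition of AAUAAA in polyadenylated mRNAs, moved in opposite directions, and the call of Wdr33 was lost without RTF2-deficient line 2 replicate 1 (adjusted p = 0.0514) or replicate 2 (adjusted p = 0.0515), and with a replicate block (adjusted p = 0.0637). Lsm10 (log2 fold change −0.06), Lsm11 (0.06) and Zfp473 (0.16), parts or partners of the U7 particle that guides the cut, were not called.

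Downstream of processing, 0 of 14 genes for translation, export and decay of histone mRNA rose and 2 fell, with a median of 0.01. They were Mif4gd (log2 fold change −0.30, edgeR adjusted p = 0.0155), a partner of SLBP in translation, and Parn (−0.25, adjusted p = 0.0174), a nuclease that removes poly(A) tails. Of 24 histone chaperones and assembly factors 1 rose and 3 fell, with a median of −0.02. Tonsl, which reads newly made H4 at replication forks, stood at 32.4, 28.0 and 29.0 CPM, then 22.5, 22.2 and 21.1 CPM in line 1, and 31.1, 29.8 and 32.1 CPM, then 18.8, 21.6 and 23.9 CPM in line 2, WT before RTF2-deficient. Its groups were apart in both lines, as in 852 of all 14263 genes tested, and it fell by −0.49 (adjusted p = 4.86e-04). Ipo4, which carries H3 and H4 into the nucleus, fell by −0.27 and Ubn1, of the HIRA complex that deposits H3.3, rose by 0.23 (adjusted p = 0.0110 and 0.00983). Atrx, which deposits H3.3 with DAXX, fell by −0.24 (adjusted p = 0.0208), a call lost without WT line 2 replicate 3 (adjusted p = 0.0529) or RTF2-deficient line 2 replicate 1 (adjusted p = 0.0539), and with a replicate block (adjusted p = 0.0640). The chaperones that load histones behind the fork, Chaf1a (log2 fold change 0.06), Chaf1b (−0.02) and Asf1b (−0.17), were not called.

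Among 11 replication-independent histone genes tested, 0 rose and 1 fell, with a median of −0.01. H1f10, a linker histone gene, fell by −0.32 (edgeR adjusted p = 0.0193), a call lost without WT line 2 replicate 3 (adjusted p = 0.0586) or RTF2-deficient line 2 replicate 2 (adjusted p = 0.0519), and with the same genes tested only without the latter (adjusted p = 0.0506). H2ax had a log2 fold change of −0.26 (adjusted p = 0.0679), and H2az1 (−0.00), H3f3a (−0.01), H3f3b (0.01) and H1f0 (−0.02) were near 0.

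Cell-cycle genes were read beside the histone genes, since these are transcribed in S phase. Of 28 S phase replication genes 0 rose and 6 fell over both lines, or 21.4% beside 8.18% of all genes called lower, with a median of −0.10: Gins2 (log2 fold change −0.49), Pold1 (−0.45), Pole (−0.40), Mcm7 (−0.29), Pola1 (−0.24) and Lig1 (−0.21), all parts of the replication machinery. Pold1, the catalytic subunit of DNA polymerase delta, stood at 75.3, 73.0 and 73.3 CPM, then 58.3, 53.5 and 58.0 CPM in line 1, and 78.8, 75.8 and 83.4 CPM, then 52.5, 52.2 and 60.8 CPM in line 2, WT before RTF2-deficient. Its groups did not overlap in either line, as in 852 of all 14263 genes tested. Of 20 G2 and M phase genes edgeR called 0, with 0 at an unadjusted p under 0.05, 0 in DESeq2 and 0 in voom, and the median was 0.00. Interferon-stimulated genes gave 0 of 22 in edgeR over both lines, with 2 at an unadjusted p under 0.05, 2 in DESeq2 and 0 in voom, and a median of −1.60. The part of the S phase and interferon genes in the values of the histone genes was not tested.

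A few RNAs that lack a poly(A) tail, mostly small nucleolar RNAs, were called. Of 30 tested, 5 rose, or 16.7% beside 4.98% of all genes, and 0 fell, with a median of 0.16: Snora68, Snora5c, Snora41, Snora81 and Snora65. Snora68, the strongest of them, stood at 0.215, 0.570 and 0.651 CPM in WT line 1, 1.72, 2.94 and 3.22 CPM in RTF2-deficient line 1, 0.456, 0.485 and 0.472 CPM in WT line 2 and 4.35, 4.29 and 2.24 CPM in RTF2-deficient line 2. All 118 such RNAs of the table summed to 13.7, 15.3 and 22.5 CPM in WT line 1, 17.9, 23.7 and 28.0 CPM in RTF2-deficient line 1, 19.6, 19.7 and 28.7 CPM in WT line 2 and 30.5, 32.8 and 21.2 CPM in RTF2-deficient line 2. The sums overlapped between genotypes in both lines. By replicate number they were higher in RTF2-deficient MEFs in 3 of 3 cases in line 1 and in 2 of 3 in line 2, where numbers do not pair. Their part in the histone values was not tested.

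Markers of other cell types ranged from 0 to the level of the leading histone genes: Cd68 of macrophages reached 8.95 CPM and Csf1r 1.83, and the endothelial genes Kdr and Tek reached 15.2 and 12.5 CPM, above most of the 62 histone genes. Kdr, a receptor of endothelial cells and the most abundant of its list, was the 1 gene of 2 tested that rose on that list (log2 fold change 0.58), with the defining markers Cdh5 and Pecam1 at or below 0.231 and 0.113 CPM. Krt18, a keratin and the most abundant of its list, was the 1 of 4 epithelial markers that rose (0.74). Epcam was at or below 0.308 CPM, Krt8 at or below 0.334 CPM and Esrp1 at or below 0.0452 CPM. Cdh1, on the same list, reached 2.997 CPM, with a median of 0.481 CPM over the libraries. Summed endothelial markers were 14.7, 10.7 and 14.1 CPM in WT line 1, 20.3, 17.7 and 21.6 CPM in RTF2-deficient line 1, 14.7, 13.2 and 15.6 CPM in WT line 2 and 18.4, 17.7 and 14.0 CPM in RTF2-deficient line 2. Summed epithelial markers were 2.20, 2.06 and 2.36 CPM, then 2.77, 4.27 and 3.68 CPM in line 1, and 9.53, 7.36 and 6.78 CPM, then 13.1, 10.5 and 9.13 CPM in line 2, WT before RTF2-deficient. The part of either list in the histone values was not tested. For macrophage (3 tested), germ cell (1) and muscle markers (2) edgeR called 0 over both lines, with 1 at an unadjusted p under 0.05 in each list and 0 in DESeq2, while voom called 1 macrophage and 1 germ cell marker. DESeq2 gave no adjusted p for 1 of the 2 muscle markers. Within line 2, edgeR and DESeq2 each called 1 macrophage marker. Tyrobp of macrophages reached at most 0.0513 CPM and the muscle gene Ckm was at 0 in all libraries, while Myod1 reached 2.91 CPM in WT line 1 replicate 1.

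Sequence shows how alike the 62 genes are. By position 51 lie on chromosome 13, 8 on chromosome 3, 2 on chromosome 11 and 1 on chromosome 6. The 13 H4 genes encode 1 protein of 103 residues from 12 distinct coding sequences, the 10 H3 genes encode 3 proteins, the 16 H2A genes 9, the 17 H2B genes 11 and the 6 H1 genes 6. Since reads of 75 bases can fit more than 1 of them, the share of a transcript's 75-base stretches found in another gene's transcript was computed. The median over the 62 genes was 37.7%, with 24 genes above 50%, 6 with none and 2 (H3c14 and H2ac19) with all. That share was 6.66% for H1f2, 27.1% for H2bc4, 22.4% for H4c9, 30.6% for H2aw and 87.6% for H4bc24. It was 93.5% for H3c10, 89.3% for H2ac13 and 77.6% for H2ac11. The counts of H3c14, H2ac19, H4bc24, H3c10, H2ac13 and H2ac11 may therefore hold reads of other genes or lack their own.

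The histone 3′ stem-loop was looked for in GENCODE M21 transcripts. It started within 100 bases after the stop codon in 42 of the 62 genes, against 5 of 20267 other genes, at 22 to 59 bases after it (median 32.0). This window was chosen after seeing the data, and within 100 bases of the transcript's end 21 of 62 had it, against 3 of 20267. In 21 of the 42 genes the annotated transcript went on for over 100 bases past the stem-loop, so the end that processing would give is not the annotated end. Of the 20 genes with no match, 15 have at most 30 bases after the stop codon in the annotation. The stem-loops are shown because they are the element that SLBP and U7 processing read. Capitals mark the 2 arms of the stem, with 5 bases of the transcript on each side, given for the leading gene of 4 families and for H2aw and H3c3.
H1f2: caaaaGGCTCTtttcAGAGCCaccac
H2ac19: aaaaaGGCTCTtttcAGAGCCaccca
H2aw: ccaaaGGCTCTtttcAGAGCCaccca
H3c14: acaaaGGCTCTtttcAGAGCCaccac
H3c3: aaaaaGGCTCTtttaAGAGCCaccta
H4c9: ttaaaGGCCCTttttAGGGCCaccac
There were 8 kinds of stem-loop: 22 genes of H1, H2A, H2B and H3 shared that of H1f2, and each kind found in an H4 gene was found in no other family among the 42.

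The 9 genes with the highest CPM had longer GENCODE M21 transcripts than the other 53, and CPM itself grows with length. Their median transcript was 1825 bases long against 508, 7 of 9 were longer than 1000 bases against 8 of 53, and 3 of 9 had more than 1 exon against 1 of 53. The 7 holds for GENCODE M21 only. By RefSeq positions H1f2 (chr13:23738807-23739531), H2aw (chr11:58954685-58955192) and H3c14 (chr3:96246685-96247348) span under 1000 bases. AATAAA, the signal for a poly(A) tail, lay within the last 50 bases of any annotated transcript in 5 of 9 genes against 8 of 53, and in 68.5% of other genes. For H4bc24 the match was in another of its 3 transcripts, and the one of 2197 bases used for its length lacks it. H2bc21 has a transcript of 2620 bases with AATAAA near its end and no stem-loop match. The GENCODE M21 transcript of H1f2 runs 840 bases past its stem-loop, to chr13:23740367, with AATAAA 26 bases from its end. RefSeq ends this gene earlier, at 23739531. The H2bc4 transcript has 2 exons and neither element. Its coding sequence ends at base 414 and its first exon at base 423, and in the longest H4bc24 transcript both end at base 394. Genomic bases past these exons were not searched for the stem-loop. Ranked by CPM per kilobase in place of CPM, the leading 9 shared 7 genes with these, and 5 of 9 were longer than 1000 bases against 10 of 53, with medians of 1156 and 524 bases. In that ranking 1 of 9 had more than 1 exon against 3 of 53, and 4 of 9 had AATAAA against 9 of 53. These are annotated transcripts, and which of them the counted reads came from was not tested.

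**Figure D3:**
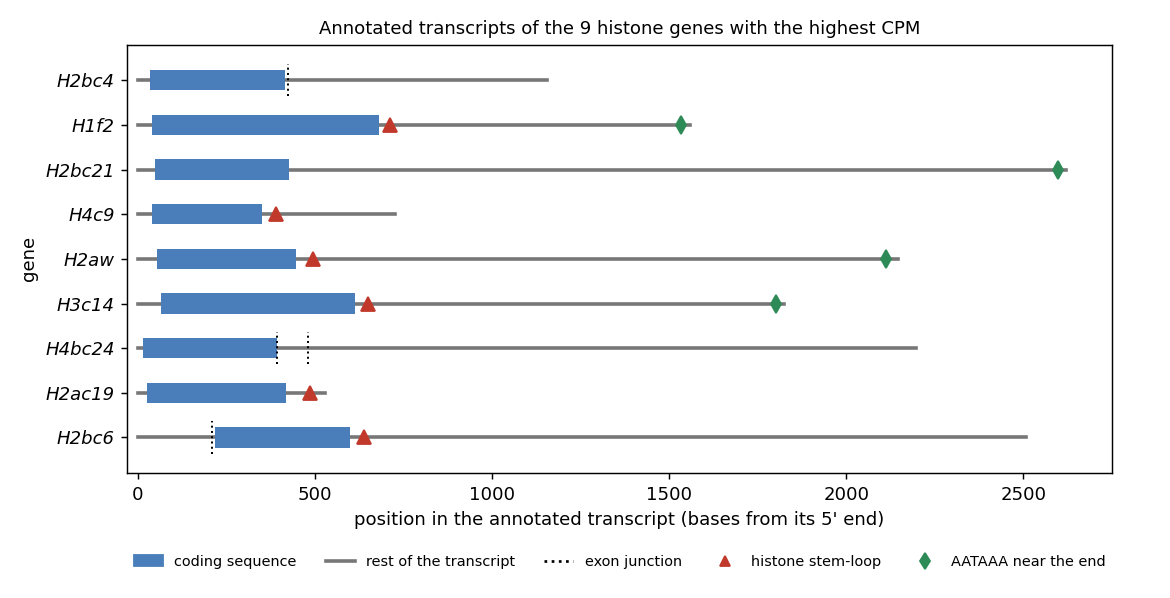
Annotated GENCODE M21 transcripts of the 9 histone genes with the highest CPM, drawn to scale in bases from the 5′ end, with coding sequence (blue), exon junctions (dotted), histone stem-loop (triangle) and AATAAA within 50 bases of the end (diamond). The stem-loop lay 25 to 59 bases after the stop codon in the 6 genes where it was found, and 7 of the 9 transcripts were longer than 1000 bases.

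Many H2A and H2B genes sit back to back and share a promoter. There were 10 divergent pairs with starts within 500 bases, each of an H2A and an H2B gene, with gaps of 163 to 280 bases. In 6 of the 10 pairs a partner's mean was at or below 0.0762 CPM, the highest limit before TMM normalization. In the others, apart from H2bc4 and its partner, levels per kilobase differed by 1.07 to 3.61 times. H2bc4 averaged 24.8 CPM and H2ac6, across a gap of 239 bases, 0.176 CPM, with 0 to 26 counts in a library and 0 in 2. H2bc21 lies 191 bases from H2ac20, whose mean was below that limit. H2ac20 never exceeded 4 counts in a library, whereas H2bc21 had 73 to 191.

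Promoters, taken from RefSeq GRCm38.p6 as 250 bases before to 50 bases after the start, were found for 57 of the 62 genes and read on both strands. CCAAT was present in 84.2% of the histone promoters and 41.0% of all others, and TATAAA in 57.9% and 15.6%. ATGCAAAT, the octamer, was present in 24.6% and 1.92%, in 7 H2A and 7 H2B genes and in no gene of the other families. GGTCCG was present in 11 of 12 H4 promoters, and in 9.42% of all others, while CCAAT was in 3 of these 12 and in each promoter of the other families. AAACACA was present in 5 of 6 H1 promoters and in 8.21% of all others. The promoters of H2ac6 and H2ac20 are shown because they span the gap shared with H2bc4 and H2bc21, and those of H1f2 and H4c9 as the leading H1 and H4 genes. Capitals mark these 5 motifs on either strand, and a match is a description, not a site or a cause.
H2ac6 (GRCm38.p6 chr13:23683910-23684209, minus strand): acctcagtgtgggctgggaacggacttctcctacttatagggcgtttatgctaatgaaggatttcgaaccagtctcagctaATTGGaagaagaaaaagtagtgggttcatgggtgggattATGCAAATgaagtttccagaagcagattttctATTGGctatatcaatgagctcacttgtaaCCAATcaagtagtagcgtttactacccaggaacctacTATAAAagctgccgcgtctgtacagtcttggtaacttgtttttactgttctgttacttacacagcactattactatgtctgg
H2ac20 (chr3:96220831-96221130, minus strand): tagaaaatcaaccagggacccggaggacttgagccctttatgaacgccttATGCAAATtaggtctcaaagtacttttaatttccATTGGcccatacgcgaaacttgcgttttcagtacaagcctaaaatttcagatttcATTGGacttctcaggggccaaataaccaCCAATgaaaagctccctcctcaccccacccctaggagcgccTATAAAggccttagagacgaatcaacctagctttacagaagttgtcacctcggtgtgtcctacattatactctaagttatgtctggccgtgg
H1f2 (chr13:23738557-23738856, plus strand): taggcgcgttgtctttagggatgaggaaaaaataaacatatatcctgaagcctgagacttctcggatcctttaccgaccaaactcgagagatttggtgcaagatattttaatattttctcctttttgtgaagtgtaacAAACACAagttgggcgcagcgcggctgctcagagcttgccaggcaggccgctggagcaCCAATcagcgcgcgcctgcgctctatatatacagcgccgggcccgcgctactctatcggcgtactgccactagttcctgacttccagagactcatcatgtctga
H4c9 (chr13:22041313-22041612, minus strand): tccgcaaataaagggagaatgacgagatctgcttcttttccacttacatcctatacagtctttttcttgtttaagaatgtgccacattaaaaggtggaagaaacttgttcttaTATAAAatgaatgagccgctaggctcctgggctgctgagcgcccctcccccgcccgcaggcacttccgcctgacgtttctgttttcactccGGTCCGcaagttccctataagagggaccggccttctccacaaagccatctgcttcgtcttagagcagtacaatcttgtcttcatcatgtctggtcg
Each of the windows shared by an H2A and an H2B gene held ATGCAAAT 1 time, TATAAA 1 time and CCAAT 1 time on the H2A strand and 2 times on the other.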

How the data were processed

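The authors deposited, for each gene and library, raw read counts without normalization, and all 12 columns were used. The methods name Salmon and tximport and the submitters' notes HTSeq, each on mm10. RefSeq GRCm38.p6 gave symbols for 24045 of 24100 identifiers, promoters and positions, and GENCODE M21 gave transcripts. R 4.3.3 was used with edgeR 4.0.16 (filterByExpr on 4 groups, TMM, quasi-likelihood test with terms for line and genotype, or contrasts of the 4 groups), limma 3.58.1 and DESeq2 1.42.0. Genes were called at a Benjamini-Hochberg adjusted p under 0.05 over all genes tested. SE is the coefficient's size divided by the square root of F. The genes named were Rtf2, called members, the member of each family with the highest CPM per kilobase, 15 genes of the histone pathway and up to 3 genes per list by adjusted p, and others named were chosen after their values were seen. Members and lists were chosen with earlier results of these data known. Intron retention is not analysed here. Fits of line 1 alone, with and without a replicate block, fits without 1 library on the same genes, and the stem-loop window after the stop codon were added after seeing the data.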

Additional observations from a re-analysis of the deposited data

How the results depend on the processing

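Counts were low for most of these genes, with a median under 50 in 54 of 62, and whether depth, RNA selection or read assignment set this was not tested. Over both lines, edgeR called 2 of 33 histone genes and 1878 of 14263 genes. The count was 3 with upper quartile (1891 of all genes) or a replicate block (1427 of all genes), each adding H1f5. It was 3 with DESeq2 (adding H3c3), beside 2702 of all genes. With no filter it was 3 of 62 tested, beside 1610 of 19682 genes. That fit added H3c10, with 4, 4 and 7 counts in RTF2-deficient line 1 and 0 elsewhere. The count was 0 beyond a log2 fold change of 1, 4 with voom (group as a random block, correlation −0.148) and 1 without the line term. For voom the count over all genes is not given here. It was 0 with the 3 libraries of each group summed to 4 samples, a fit that called 0 of 14263 genes. Without 1 library it ran from 0 to 3. Within line 1 the count was 0, also with the planned replicate block (5 unadjusted). It was 4 only with line 1 fitted alone with a replicate block, added after seeing the data, and 0 to 1 without 1 library, 1 coming without RTF2-deficient line 1 replicate 3. Within line 2 the count was 0. It was 1 with DESeq2 (2586 of all genes), 1 with a replicate block (1617 of all genes) and 0 to 2 without 1 library. The difference between lines ran from 0 to 1 and the WT lines from 0 to 3. Of 83 genes on the 5 histone pathway lists 13 were called, 0 beyond a log2 fold change of 1, 8 with a replicate block, 0 with summed libraries and 8 to 14 without 1 library, 8 coming without RTF2-deficient line 2 replicate 1 or 2. The summed fit has few degrees of freedom, and for the other changes the cause was not tested.

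The replicate numbers paired libraries in line 1 and not in line 2: correlations of the numbered WT and RTF2-deficient libraries were 0.63, 0.43 and 0.49 in line 1 and −0.59, 0.17 and −0.28 in line 2, and 6 of 6 libraries in line 1 and 0 of 6 in line 2 matched their own number best. What the numbers share is not stated. With the replicate block, the log2 fold change of H4c9 went from −0.02 to 0.00846, and with voom to 0.00956, and without 1 library it ran from −0.11 to 0.0819. For the WT lines a replicate block could not be fitted, since the block contains the line.

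Fits without 1 library filtered anew and tested 35 to 39 histone genes, so library and genes changed at once. In them, median log2 fold changes ran from 0.08 to 0.35 over both lines, −0.13 to 0.56 in line 1, −0.05 to 0.21 in line 2 and 0.0820 to 0.49 between the WT lines. With the same 33 genes kept, added after seeing the data, they ran from 0.11 to 0.35, −0.11 to 0.65, −0.05 to 0.21 and −0.02 to 0.49. The counts then ran from 0 to 3 over both lines, 0 to 1 in line 1, in line 2 and between lines, 0 to 2 for the WT lines and 8 to 13 for the pathway lists, and H4c9 from −0.12 to 0.0736. With at least 1 CPM in 6 libraries, 8 genes were left and the medians were 0.0374 over both lines (0.24 before), 0.0328 in line 1, −0.0517 in line 2 and −0.34 between the WT lines. The stem-loop count of 21 was 11 within 50 bases of the transcript's end and 42 by position after the stop codon.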
